A study of Caenorhabditis elegans with 4 samples.

Results

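Chromosome III carried 681 of the 3890 peaks (17.5%) in the series-wide list of regions bound by PHA-4 in Caenorhabditis elegans larvae at the L4 stage. They are all rows of that list, called here the combined list, whose chromosome column reads III, and no measured value entered the choice. PHA-4 is the FoxA transcription factor of the worm. In C. elegans it specifies the pharynx, the feeding organ, and is also active in the gut and in the somatic gonad. FoxA factors are known to bind compacted chromatin and to open it for other factors, and PHA-4 occupies many promoters of pharyngeal genes.

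The animals were hermaphrodites of strain OP37, grown at 20 °C. They carried the mutation unc-119(ed3), which lies on III, and the bombarded transgene wgIs37, which supplies a rescuing unc-119(+) and a copy of pha-4 joined to TY1, EGFP and 3xFLAG tags. Every sample had this background, so binding was that of a tagged PHA-4 made from a transgene, which the labels describe as following the normal place and time of pha-4 expression. Whether a peak on III lies at unc-119, of which the transgene adds copies, was not examined, because gene positions in the build of the lists were not used. The series held 2 ChIP samples, precipitated with anti-GFP antibodies, and 2 Input samples of total genomic DNA. Each ChIP sample had its own peak list, and Input had none that was analysed here, so PHA-4 was not compared with Input. The labels name no separate cultures for the ChIP samples, and differences between them may be technical. The lists give no read counts, and the depth is unknown. Positions are in the WormBase WS220 build. With neither a genome nor gene models of that build in use, each region is named by its position, without sequence.

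Replicate 1 had 3090 peaks on III, which covered 6.99% of the chromosome, and replicate 2 had 3150, which covered 7.19%. The combined peaks covered 322.3 kb, or 2.34%, at 49.4 peaks per Mb. The outermost combined peaks reached from position 87208 to 13763956, and the length of III was taken as 13775305 bp, the largest coordinate in any list. The replicate lists are longer. Their caller is named spp_via_IDR and that of the combined list PeakSeq. The part of the caller in any difference between the combined and replicate lists was not tested. Below, the combined list is said to keep a replicate peak that a combined peak overlapped, and to lack one that none overlapped. Where lists are compared at the same length, the 3890 highest-ranked peaks of each replicate over the whole genome were used, of which 653 and 667 lay on III. Ranks, counted from 1, are by the authors' q-value in the combined list and by their score in the replicate lists, with ties ordered by the number in each deposited peak name. The score is capped, and 4569 peaks of replicate 1 and 4614 of replicate 2 stand at its maximum. All 3890 highest-ranked peaks of each replicate are therefore tied on the score, and every rank up to 3890 in a replicate list rests on the deposited peak number alone, whose meaning the files do not give. Percentages are followed by exact (Clopper-Pearson) 95% intervals over peaks, which cover counting error only. The exact tests below take each peak as an independent event. Close peaks are not independent, and the true p-values are probably larger. They were adjusted by the Benjamini-Hochberg method over 11 tests.

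PHA-4 peaks were sparser towards the left end of III, though unevenly, were densest in the middle, and became dense again at the right tip. In the combined list the central 33.3% of the chromosome held 276 peaks (40.5%, 36.8% to 44.3%), the left arm 194 and the right arm 211. The arms here are the outer 33.3% on each side, drawn by length alone and not by any biological boundary. This corresponds to 60.1 peaks per Mb in the centre, 42.2 on the left arm and 46.0 on the right arm. The share in the centre was 1.22 times that expected from length (two-sided exact binomial test, adjusted p = 0.00102). With the centre widened to 50% of the chromosome, it held 62.6% of the peaks (adjusted exact p = 6.4e-10). The central 33.3% held 41.0% of the peaks that both replicates overlapped (adjusted exact p = 0.000969). Of the peaks on III in the 50% of the list with the lowest q, it held 41.6% (adjusted exact p = 0.0056). With peaks less than 10 kb apart joined and counted once, the share was smaller, at 36.6% of 339 joined regions. It then did not pass the test (adjusted exact p = 0.377). The replicates' highest-ranked peaks gave 43.0% in the centre in both lists, and the complete lists of replicates 1 and 2 gave 40.0% and 39.2%. Over all 5 autosomes 44.4% of combined peaks were central. Against the other autosomes, with 45.4%, the lower share on III did not pass the test (Fisher's exact test, odds ratio 0.82, 0.69 to 0.98; adjusted p = 0.066). The odds ratio was 0.84 with chromosome I left out of the comparison (adjusted Fisher's exact p = 0.288) and 0.81 with V left out (adjusted Fisher's exact p = 0.0452). The unadjusted p was larger without V, at 0.0288, than with it, at 0.024, so the adjusted p crossed the threshold through the other tests of the family and not through stronger evidence for the centre.

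The arms differed little in number when drawn as the outer 33.3% on each side. The left arm held 47.9% (42.9% to 52.9%) of the peaks on both arms (two-sided exact binomial test against equal shares, adjusted p = 0.606). With the centre widened to 50% of the chromosome, the left arm held 42.0% of the 255 peaks outside it (adjusted exact p = 0.0333).

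In bins of 500 kb the profile of the combined list had 3 high points. The fullest of 27 complete bins was 5500001 to 6000000 with 46 peaks, followed by 8500001 to 9000000 with 44 and 3500001 to 4000000 with 40, the last of these on the left arm. The median bin held 24 peaks. Between the central high points, the bin from 6500001 to 7000000 held 17 peaks, which was below the median. The emptiest bins all lay near the left end: 1 to 500000 held 8 peaks, 1000001 to 1500000 held 10, and 1500001 to 2000000 and 2000001 to 2500000 held 12 each. The bin among them from 500001 to 1000000 held 24, equal to the median, so the decline was not steady. The replicates' highest-ranked peaks had similar counts in most of these bins. The bin from 5500001 to 6000000 held 41 peaks of replicate 1 and 34 of replicate 2, and that from 8500001 to 9000000 held 47 and 45. The first bin held 10 and 9. The counts differed elsewhere: the bin from 12000001 to 12500000 held 22 peaks of replicate 1 and 10 of replicate 2, and the second fullest bin of replicate 2 was 8000001 to 8500000, with 40 peaks in each replicate. Across the 27 bins, Spearman's rho of the peak count was 0.93 between the combined list and replicate 1, 0.86 between the combined list and replicate 2, and 0.89 between the replicates. The combined list was made from the same libraries, so these values describe the lists and are no independent support.

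**Figure D1:**
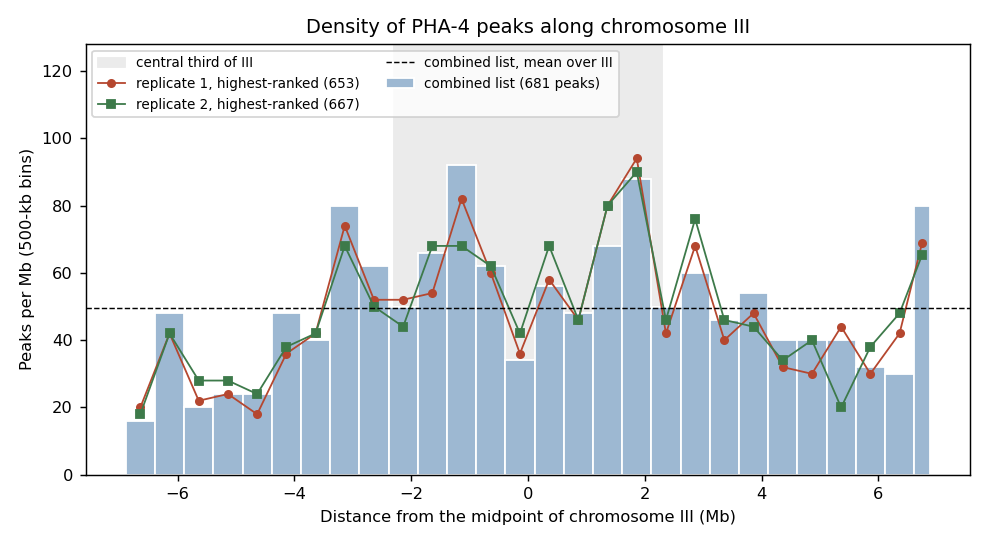
Peaks per Mb in 500-kb bins of chromosome III, drawn by distance from its midpoint, for the combined list (bars) and for the highest-ranked peaks of each replicate (lines with points); the last bin on the right is shorter. The combined bars rise to 92 and 88 peaks per Mb within the shaded centre, fall to 16 at the left end and stand at 79.9 at the right tip.

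The right tip was unlike the left one. The last 275.3 kb of III, the incomplete bin from 13500001 to 13775305, held 22 combined peaks, or 79.9 per Mb, against 4 in the first 275.3 kb. The replicates' highest-ranked peaks gave 19 and 18 at the right tip and 4 and 2 at the left. This pair of stretches was set side by side after the counts had been seen, and no test was made. Windows of that length along III, moved in steps of 1 kb, held a median of 13 combined peaks and at most 34, in the window from 8630001 to 8905305. Of these 13501 overlapping windows, 1319 held as many combined peaks as the right tip or more. The right end of IV held 16 peaks over the same length and that of V 24, while the right ends of I, II and X held 6, 9 and 12.

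Long stretches without any combined peak were most frequent on the left arm. Of the 15 gaps longer than 100 kb, 7 were on the left arm, 3 in the centre and 5 on the right arm. The longest ran from 1285030 to 1601594, a span of 316.6 kb, and the next from 154526 to 343709, a span of 189.2 kb. They were not empty in the replicate lists. The longest gap contained 38 peaks of replicate 1 and 34 of replicate 2, of which 4 in each list were among the 3890 highest-ranked. The second gap contained 11 and 19 replicate peaks, and the best of these ranked 8061 in replicate 1 and 6979 in replicate 2.

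Most combined peaks on III were overlapped by peaks of both ChIP samples when the complete replicate lists were used. By an overlap of at least 1 bp, peaks of both replicates overlapped 608 of 681 (89.3%, 86.7% to 91.5%), against 88.6% over the whole list. Replicate 1 alone overlapped 35 more (5.14%), replicate 2 alone 28 (4.11%), and 10 (1.47%) were overlapped by neither. Over the whole list, 94.2% were overlapped by replicate 1 and 92.9% by replicate 2. These values use the complete replicate lists, of 19158 and 19504 peaks. With each limited to its 3890 highest-ranked peaks, both overlapped 49.8% of combined peaks on III and 46.5% elsewhere. With the complete lists and an overlap of 50% of both peaks, the shares were 66.7% and 64.6%. By 1 bp and the complete lists, the share found in both on III did not differ beyond counting error from that of the other chromosomes together (odds ratio 1.09, 0.83 to 1.44; Fisher's exact test, adjusted p = 0.606). That average hides chromosome V, at 78.8%. With V left out, the other chromosomes stood at 93.2% and III was below them (odds ratio 0.61; adjusted Fisher's exact p = 0.00289). With I left out, the odds ratio was 1.16 (adjusted Fisher's exact p = 0.808). Both exclusions, here and below, were chosen after the values were seen. The centre of III, at 90.2% (86.1% to 93.5%), and its arms, at 88.6%, were not told apart (odds ratio 1.18, 0.70 to 2.03; adjusted Fisher's exact p = 0.606).

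Replicate support followed the rank by q of a combined peak. Among the 50 combined peaks of lowest q on III, 49 were found in both replicates, as were 49 of the next 50 and 99 of the next 100. The share was 82% (73.1% to 89.0%) for places 501 to 600 and 72.8% (61.8% to 82.1%) for places 601 to 681. Median width also fell, from 795 bp in the first 50 places to 289 bp in places 601 to 681. The lists come from the same libraries, and the part of width in this trend was not tested. Of the 10 peaks that neither replicate overlapped, 6 lay on the right arm, which held 31.0% of all combined peaks on III. This placement was not tested. All 10 ranked below 2000 in the combined list. The 5 strongest of these stood at 8116721 to 8117090 (rank 2054), 4126192 to 4126563 (rank 2397), 9293589 to 9293960 (rank 2494), 8016929 to 8017301 (rank 2503) and 13418885 to 13419056 (rank 2729). They were 172 to 373 bp wide.

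Read from the other side, combined peaks overlapped nearly all of the first-ranked replicate peaks on III and fewer of those ranked lower. The lists come from different callers, and the part of this in the shares was not tested. All 18 replicate 1 peaks on III from the first 100 of that list, and all 20 of replicate 2, overlapped a combined peak. For the first 1000 the numbers were 167 of 176 (94.9%) and 174 of 182 (95.6%). Among the 3890 highest-ranked, 487 of 653 replicate 1 peaks on III (74.6%, 71.1% to 77.9%) and 487 of 667 of replicate 2 (73.0%, 69.5% to 76.3%) overlapped a combined peak, against 69.4% and 67.6% over all nuclear chromosomes. Of the complete lists on III, 25.6% and 24.8% did so. In the complete lists, the share was higher for peaks that the other replicate also had. Replicate 1 peaks on III that replicate 2 also had were in the combined list in 47.6% of cases, and those it lacked in 5.13%. For replicate 2 the values were 47.9% and 3.87%. Sharing itself rose with rank: replicate 2 overlapped 89.6% of the highest-ranked replicate 1 peaks on III and 48.3% of all. Replicate 1 overlapped 88.2% and 47.6% of those of replicate 2. The part of rank in the difference was not tested.

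The share of highest-ranked replicate peaks that the combined list kept was higher on III than on the other chromosomes pooled. The odds ratio was 1.36 in replicate 1 (1.12 to 1.66) and 1.36 in replicate 2 (1.13 to 1.65), each with an adjusted Fisher's exact p of 0.0056. The difference depended on which chromosomes were pooled. Without I, where 43.2% and 41.4% were kept, the odds ratios were 1.01 and 1.01 (adjusted Fisher's exact p = 1 for each), with 74.3% and 72.9% kept elsewhere. Without V they were 1.71 and 1.73 (adjusted Fisher's exact p = 1.37e-07 and 8.31e-08), with 63.1% and 61.1% kept elsewhere. In replicate 1, III stood above II (65.1%) and X (64.5%) and below IV (80.3%) and V (92.4%). The order was the same in replicate 2, with 65.4% on II, 62.6% on X, 76.1% on IV and 92.3% on V. The interval of III overlapped that of IV in both lists and that of no other chromosome.

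**Figure D2:**
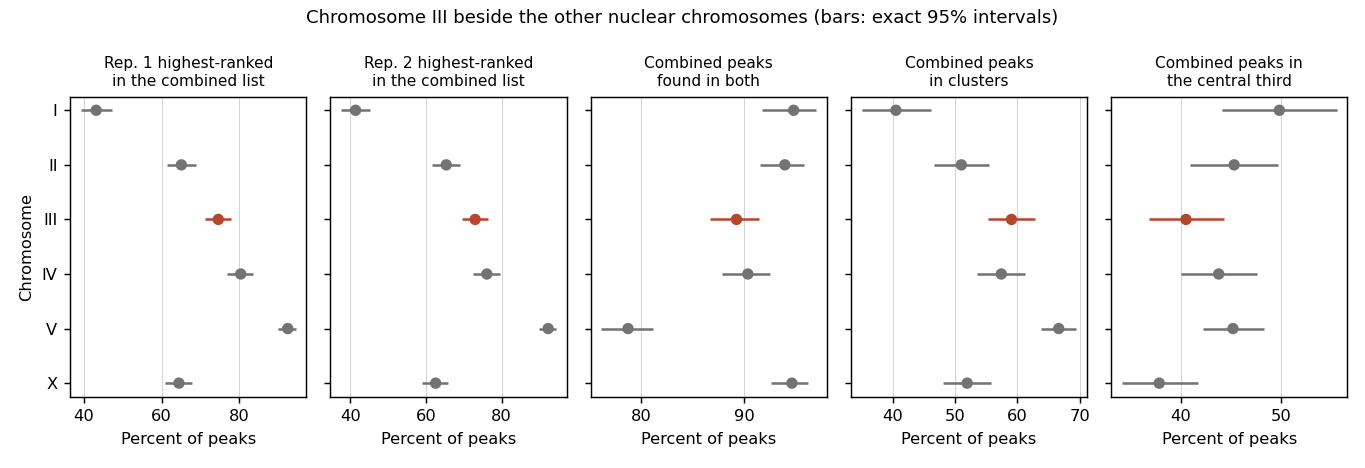
Percent of peaks, with exact 95% intervals as bars, for 5 measures on the 6 nuclear chromosomes, with III in red; the axes of the panels differ and do not start at 0. III lies between II and IV in the share of highest-ranked replicate peaks kept (74.6% and 73.0%), and its share of peaks in the central 33.3% (40.5%) is the lowest of the autosomes.

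The replicates shared high-ranked peaks on III that the combined list lacked. Of the 653 highest-ranked replicate 1 peaks on III, 121 were overlapped by replicate 2 and by no combined peak. Of the 667 of replicate 2, 124 were in the same position towards replicate 1. The first by rank were at 8850604 to 8850919 in replicate 1 (rank 499) and at 7073952 to 7074271 in replicate 2 (rank 311). The matching counts for the other chromosomes are not given here. Of all highest-ranked replicate peaks, the combined list kept 74.6% and 73.0% on III, against 69.4% and 67.6% over all nuclear chromosomes. Conversely, high-ranked peaks of 1 replicate that the other lacked were few: 2 of the 176 replicate 1 peaks on III from the first 1000 and 2 of the 182 of replicate 2. In replicate 1 these were 5925723 to 5926038 (rank 925) and 10318693 to 10319008 (rank 975), both absent from the combined list, followed by 3915741 to 3916056 (rank 1025), which the combined list held. In replicate 2 they were 11496466 to 11496785 (rank 738), in the combined list, and 8937456 to 8937775 (rank 940), absent from it. The next was 12556045 to 12556364 (rank 1004), which the combined list held.

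Overlapping replicate peaks were placed more closely where they ranked high. Among 1231 pairs on III in which 1 peak of each replicate overlapped only the other, midpoints lay a median of 56 bp apart. For the 327 pairs with both peaks among the 3890 highest-ranked it was 31 bp (interquartile range 13.5 to 56.5 bp), and for the 83 pairs with both in the first 1000 it was 21 bp. For the 904 pairs with a lower-ranked member it was 70 bp. The median signed difference, replicate 2 minus replicate 1, was -2 bp over all pairs, so neither list was shifted along the chromosome. An overlap requirement sets an upper limit on these distances, since nearly all replicate peaks had a fixed width of 316 bp in replicate 1 and 320 bp in replicate 2. The few narrower ones on III, 3 in replicate 1 and 4 in replicate 2, ranked from 16 to 37 and from 23 to 36, and each overlapped a combined peak.

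**Figure D3:**
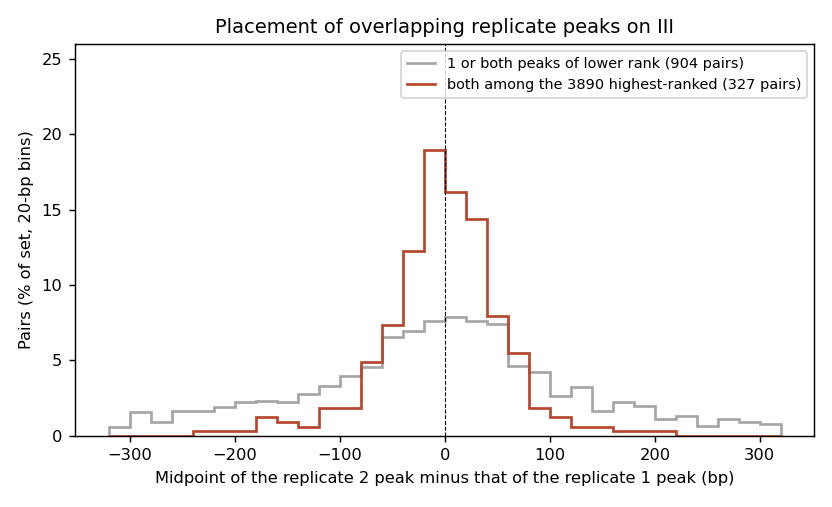
Distance between the midpoints of overlapping replicate peaks on III (replicate 2 minus replicate 1, in bp), as the percent of pairs per 20-bp bin. The 327 pairs with both peaks among the highest-ranked gather around 0, with 69.4% within 50 bp, whereas 37.7% of the 904 other pairs do so.

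Combined peaks on III were mostly narrow, with a small group of broad regions, most of them of high rank by q. The median width was 381 bp (interquartile range 309 to 512 bp), and widths ran from 87 to 4428 bp. Of the 681 peaks, 503 were at most 500 bp wide and 143 were between 500 bp and 1 kb. A further 30 were 1 to 2 kb wide and 5 were wider than 2 kb. These 35 peaks over 1 kb were 5.14% of the peaks, against 5.76% over the whole list, and held 16.8% of the bases under peaks on III. The share over 1 kb differed neither from that of the other chromosomes beyond counting error (odds ratio 0.87, 0.58 to 1.26; adjusted Fisher's exact p = 0.606) nor between the centre and arms of III (odds ratio 0.98, 0.45 to 2.06; adjusted Fisher's exact p = 1). Of the 35, 14 were central, 14 on the right arm and 7 on the left. The widths of combined peaks are those that the authors' caller drew, and the nearly fixed widths of the replicate lists do not measure the same thing.

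Broad peaks held several replicate peaks, and a larger share of them was found in both replicates. The mean number of replicate 1 peaks overlapping a combined peak of up to 500 bp was 0.988 ± 0.368 (SD, n = 503), and that of replicate 2 was 0.982 ± 0.386 (SD, n = 503). Over combined peaks of 1 to 2 kb the means were 2.07 ± 0.740 and 2.13 ± 0.571 (SD, n = 30 for each). Both replicates overlapped 86.7% (83.4% to 89.5%) of peaks up to 500 bp, 95.8% (91.1% to 98.4%) of those from 500 bp to 1 kb, and all 35 wider ones. Wider peaks offer more bases to overlap, and the part of this in the result was not tested. Over the 608 peaks found in both, Spearman's rho between rank and width was -0.58, so that peaks of lower q were wider. The lists give no read counts, so whether wider peaks were bound more strongly was not tested. One broad peak stood apart from the relation of rank and width: 6419921 to 6421690, 1770 bp wide, ranked only 2315. It was chosen after its values were seen.

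**Figure D4:**
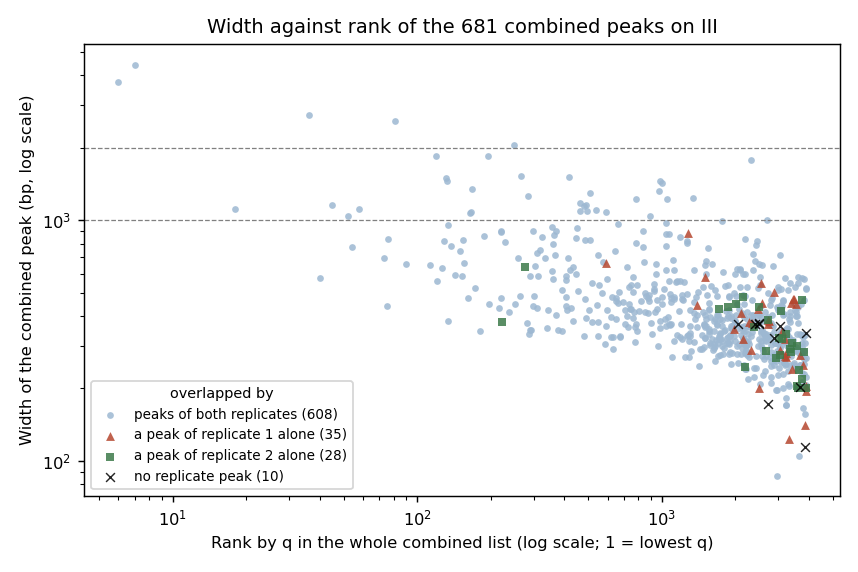
Width of each of the 681 combined peaks on III in bp against its rank by q over the whole combined list (both axes on log scales), with symbols for the replicates that overlapped it and dashed lines at 1 and 2 kb. The 5 peaks over 2 kb rank between 6 and 249, and the 10 peaks that no replicate overlapped, drawn as crosses, all rank below 2000.

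The 5 peaks wider than 2 kb lay at 9050574 to 9055001 (4428 bp), 8443501 to 8447247 (3747 bp), 5938829 to 5941563 (2735 bp), 12613112 to 12615688 (2577 bp) and 3789844 to 3791901 (2058 bp). They held 4 to 9 peaks of replicate 1 and 2 to 10 of replicate 2. The widest held 9 and 10, spaced at a median of 399.5 bp in replicate 1 and 520 bp in replicate 2. Its highest-ranked point differed between replicates, by peak number alone for ranks up to 3890. The best replicate 2 peak, rank 85 in that list, had its midpoint 899.5 bp from the left edge, where replicate 1 had a peak of rank 3502 at 912.5 bp. The best replicate 1 peak, rank 1385, stood at 3443.5 bp, where replicate 2 had one of rank 1993 at 3433.5 bp. In the peak at 8443501 the best replicate 1 peak, rank 16, had the lowest peak number among the capped peaks of that list on III and lay 3552.5 bp from the left edge, while replicate 2 had a peak of rank 1334 at 3569.5 bp and its best, rank 626, at 2677.5 bp. In the peaks at 5938829 and 12613112 the best points of the replicates lay close together: 1888.5 and 1868.5 bp from the left edge in the first, and 1586.5 and 1661.5 bp in the second. The peak at 3789844 held no replicate 1 peak among the 3890 highest-ranked and 2 of replicate 2.

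The 15 combined peaks of lowest q on III comprised 7 in the centre and 4 on each arm, and peaks of both replicates overlapped all 15. The first was 8443501 to 8447247, with q = 7.74e-85 and rank 6 in the whole list, followed by the widest, 9050574 to 9055001, with q = 6.89e-78 and rank 7. The next were 8416927 to 8418042 (rank 18), 5938829 to 5941563 (rank 36) and 12612247 to 12612820 (rank 40). Of these only the last was under 1 kb, at 574 bp. The remaining central peaks of the 15 were 8799820 to 8800971 (rank 45), 8801286 to 8802400 (rank 58) and 8411837 to 8412496 (rank 90). On the left arm were 1920878 to 1921654 (rank 54), 1223694 to 1224388 (rank 73), 3307350 to 3307789 (rank 75) and 600351 to 601003 (rank 113). On the right arm were 10632048 to 10633089 (rank 52), 13732080 to 13732918 (rank 76) and 12613112 to 12615688 (rank 81). The narrowest, 3307350 to 3307789, was 440 bp wide. The last of the 15 had q = 5.61e-15 and the next peak in order had q = 9.91e-15.

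Several of the strongest peaks were neighbours. Of the 15, 7 had another of the 15 within 50 kb. The peaks at 8799820 and 8801286 were separated by 314 bp, those at 12612247 and 12613112 by 291 bp, and those at 8411837 and 8416927 by 4430 bp, with the strongest peak of III a further 25458 bp to the right. The 10% of the combined list with the lowest q included 79 peaks on III (11.6%, 9.29% to 14.2%), against 10.0% by construction over the whole list. The difference from the other chromosomes did not pass the test (odds ratio 1.23, 0.93 to 1.60; adjusted Fisher's exact p = 0.307), nor did it with chromosome I left out (odds ratio 1.18; adjusted Fisher's exact p = 0.808), but it did with V left out (odds ratio 1.42; adjusted Fisher's exact p = 0.0274). By part of III, 33 of the 79 lay in the centre and 23 on each arm.

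The 15 peaks stood at various places in the replicate lists. Places up to 3890 there follow the peak number among tied scores, so the score itself does not order them. The best replicate 1 peak overlapping each of the 15 ranked from 16 to 1808, and the best replicate 2 peak from 15 to 4988. Both replicates placed a peak among their first 1000 in 10 of the 15, and among their first 100 in 2 of them, those at 12612247 and 13732080. Over all 681 combined peaks on III, 6 met that limit of 100 in each replicate. The other 4 were 8733102 to 8733919 (combined rank 129), 6971845 to 6972227 (133), 12904911 to 12905258 (181) and 5678931 to 5679267 (286). These 6 peaks were 337 to 839 bp wide. None was on the left arm, which held 28.5% of all combined peaks on III, and with so few peaks this was not tested. The peak at 6971845, 383 bp wide, ranked 18 and 23 in the replicate lists, and that at 5678931, 337 bp wide, ranked 19 and 44. Across the 608 peaks on III found in both replicates, Spearman's rho was 0.52 between the combined rank and the best replicate 1 rank, 0.50 between the combined rank and the best replicate 2 rank, and 0.42 between the replicates. The best of several peaks tends to rank higher in a wide region, which acts on these values.

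**Figure D5:**
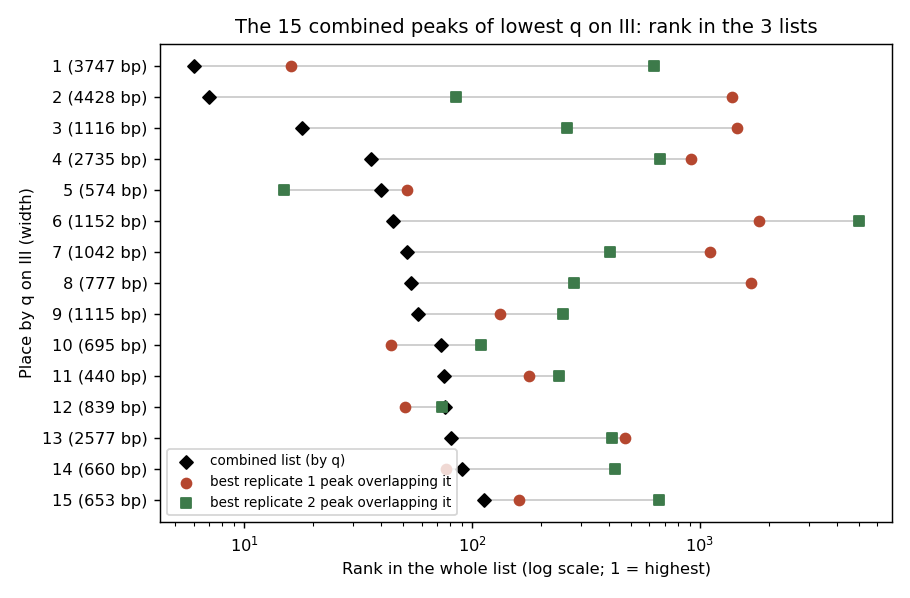
Rank in the whole list (log scale, 1 = highest) of the 15 combined peaks of lowest q on III and of the best peak of each replicate overlapping them; labels on the left give the place by q on III and the width. Peaks 5 and 12, 574 and 839 bp wide, rank within 100 in all 3 lists, whereas peak 6 ranks 45 in the combined list and 1808 and 4988 in the replicates.

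Peaks on III formed many small groups and few large ones. The median gap between the edges of neighbouring combined peaks was 9645 bp, and 254 of 680 gaps (37.4%) were shorter than 5 kb. With such neighbours joined, 402 peaks (59.0%, 55.2% to 62.8%) fell into 148 clusters and 279 stood alone, against 57.1% of peaks in clusters over the whole list. The share did not differ beyond counting error from the other chromosomes together (odds ratio 1.10, 0.93 to 1.31; adjusted Fisher's exact p = 0.491). Chromosome V had the highest share, 66.6%, and without it III was above the others, which stood at 51.8% (odds ratio 1.34; adjusted Fisher's exact p = 0.0026). Without I the others stood at 58.4% (odds ratio 1.03; adjusted Fisher's exact p = 1). A chromosome with more peaks per Mb has closer neighbours, and the part of density in this was not tested. Along III, the share in clusters was 62.7% in the centre, 60.3% on the left arm and 53.1% on the right. Of the clusters, 84 had 2 peaks, 43 had 3 and 10 had 4.

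The 11 clusters of 5 or more held 65 peaks, and the largest had 7. There were 4 of that size: 3786668 to 3801931, 3866773 to 3879572 and 4493284 to 4507075 on the left arm, and 10629611 to 10643088 on the right. The first spans 15.3 kb, held the 2058-bp peak at 3789844, was covered by combined peaks over 40.0% of its length, and contained 15 replicate 1 and 17 replicate 2 peaks. The cluster at 10629611 spans 13.5 kb and contained the peak of rank 52. Both replicates had found all 7 members of each of these, but 5 of 7 in the clusters at 3866773 and 4493284. Clusters of 6 stood at 7718291 to 7731297, with all members found in both replicates and a best rank of 119, and at 8130339 to 8139324, with 4 of 6 found and a best rank of 229. The clusters of 5 were 5937990 to 5949019, 6164632 to 6173314 and 7317236 to 7324906 in the centre, and 13619537 to 13626948 and 13712860 to 13724614 near the right end. The first of these contained the peak of rank 36 and was covered over 49.7% of its length. The cluster at 6164632 was the weakest of the 11: its best peak ranked 2018, and both replicates had found 2 of its 5 members.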

How the data were processed

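Peaks in the combined list carry the authors' q-value from PeakSeq, per the file headers. The replicate lists give a capped score per peak under the caller name spp_via_IDR, per the file headers. Comment lines of the combined list record a liftover to WS220. They name 2 peaks on III, at 835335 to 836210 and 10505100 to 10505450, whose deposited rows differ by 1 to 17 bp. Not given in the sources used here are the aligner, the thresholds, the use of Input and the way the replicates were combined. No file gave read counts.

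Samples were grouped by title. Midpoints placed peaks along III. Overlap required 1 bp, clusters joined edges less than 5 kb apart, and 1 repeated row of replicate 2 was dropped. Shares were tested by two-sided exact binomial and Fisher's exact tests with Benjamini-Hochberg adjustment over 11 tests at 0.05. With 2 ChIP samples in 1 group, no groups were compared. The regions, tests and rules were chosen with earlier results of these data known. Named peaks on III were the 15 of lowest q, those wider than 2 kb, clusters of 5 or more, the 5 strongest without replicate support, the 3 highest-ranked peaks of each replicate that the other lacked, and the 3 fullest and emptiest bins of 500 kb. The widest peaks' interiors, the tips, the gaps, the placement of replicate peaks, the peaks shared by the replicates but absent from the combined list, those high in both replicates and the comparisons without I or V were added after the data were seen. Scripts were tested on simulated data. Tests used scipy 1.17.1 with numpy 2.4.6 and pandas 2.3.3 under Python 3.11.15, and figures matplotlib 3.10.9.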

Additional observations from a re-analysis of the deposited data

How the results depend on the processing

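Of 51 alternative values chosen beforehand, 45 stayed on the same side of the threshold. Most of the 51 concerned shares that had not passed at the main settings, so this count says little about those that had. The 5 values that no longer passed all belonged to shares that had passed: the central share and the replicate peaks kept by the combined list. The 1 value that newly passed was the left share of the arms. The central share fell from 40.5% to 36.6% (adjusted exact p = 0.377) with peaks joined within 10 kb. It was 43.0% among the highest-ranked peaks of each replicate, and 40.0% and 39.2% in the complete lists of replicates 1 and 2. The left share of the arms was 42.0% with a central 50%. The odds ratio for replicate peaks kept by the combined list on III against the other chromosomes was 1.10 in each replicate over the whole lists, and 1.56 and 1.91 over the 1000 highest-ranked, none past the threshold; it was 1.01 and 1.01 without chromosome I and 1.71 and 1.73 without V. Without chromosome V, odds ratios passed the threshold for the centre (0.81), support by both replicates (0.61), clusters (1.34) and lowest q (1.42). The unadjusted p for the centre was larger without V (0.0288 against 0.024). Without chromosome I none of these 4 passed (0.84, 1.16, 1.03 and 1.18). The cause was not tested. No paired analysis was possible because Input samples had no peak list and the ChIP samples form 1 group. Depth is unknown, so what it limits could not be given.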
